A study of Mus musculus with 12 samples.

Results

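The 10 genes described here belong to the circadian clock and were chosen by symbol: the nuclear receptors Nr1d1 and Nr1d2, which encode REV-ERBα and REV-ERBβ, the period genes Per1, Per2 and Per3, the cryptochromes Cry1 and Cry2, the activator Clock, and the output transcription factors Dbp and Tef. They are 10 of the 18876 genes listed in any library, and all 10 passed the filter on low counts, which left 13967 genes for testing. RNA-seq was done on 12 libraries of wild-type mouse oligodendrocyte progenitor cells, primary cells from brain that give rise to the myelin-forming oligodendrocytes. The 4 groups of 3 libraries had all been exposed for 12 h: to vehicle (DMSO), to 50 µM hemin, to 50 µM hemin with 10 ng/mL interleukin-10 (IL-10), or to the same hemin and IL-10 together with stattic at 2.5 µM. Of these agents, hemin is oxidised heme, IL-10 is a cytokine whose receptor activates the transcription factor STAT3, and stattic is a small-molecule inhibitor of STAT3. Hemin was thus present in 3 of the 4 groups, and neither IL-10 nor stattic was given without it. A single time was sampled, so no rhythm or phase was measured. The labels do not say whether the replicates came from separate cultures, so each p-value reflects only how far these libraries scatter, which may be technical.

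The clock is a feedback loop of transcription. CLOCK pairs with BMAL1 (the product of Arntl) to switch on genes with E-box sequences, among them the Per and Cry genes, the REV-ERBs and Dbp, and the PER and CRY proteins then block CLOCK and BMAL1. REV-ERBα and REV-ERBβ close another loop by repressing Arntl, Clock and Nfil3 at ROR elements, in competition with the activating ROR receptors, and heme is the ligand that strengthens their hold on the corepressor NCoR with HDAC3.

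Expected counts, the estimated numbers of reads per gene, summed to between 9404448 and 10266653 per library. Levels of a gene across libraries are given as CPM, counts scaled to a common library size with TMM factors, and levels between genes as FPKM, which also divides by transcript length. Markers of oligodendrocyte progenitors were detected in every library, but their summed level was 4426 to 5825 CPM in vehicle against 1729 to 2451 CPM in hemin, 1367 to 2230 CPM in hemin with IL-10 and 695 to 1731 CPM with stattic added. Summed astrocyte markers were at 5817, 4804 and 2134 CPM in vehicle replicates 1, 2 and 3, and at 807 to 3611 CPM over the hemin-exposed libraries. In vehicle replicates 1 and 2 they exceeded the progenitor sums of 4467 and 4426 CPM. The astrocyte gene Gfap ran from 36.4 to 2556 CPM over the vehicle libraries. Summed microglia markers were at 7.33 to 30.2 CPM in vehicle and at 23.4 to 138 CPM over the hemin-exposed libraries, and summed vascular and fibroblast markers at 5.33 to 19.9 CPM and 16.4 to 138 CPM. The part of these shifts in the clock results was not tested, and in bulk RNA fewer cells of a type and less RNA per cell cannot be told apart. In hemin against vehicle, 3 of 9 microglia markers (Cd68, Itgam and Tmem119) and 3 of 6 vascular and fibroblast markers (Pecam1, Dcn and Col1a1) were called higher by edgeR, and 0 lower. Of the neuron markers 2 of 7 (Snap25 and Slc17a7) were called higher. Progenitor markers had 2 of 7 called lower and astrocyte markers 1 of 7. Of all genes tested, 11.7% were called higher and 9.15% lower. The endothelial gene Pecam1 was at 0.286 to 0.464 CPM in vehicle and 6.58 to 33.5 CPM over the hemin-exposed libraries, and the microglia gene Cd68 at 1.52 to 8.32 CPM and 11.5 to 32.6 CPM, while the endothelial gene Cldn5 did not exceed 0.240 CPM in any library. Aif1 and Tmem119 were at 0 in 1 and 2 of the 3 vehicle libraries. Short transcripts were also favoured over long ones by an unequal amount: the median log2 difference from the vehicle mean was higher in the shortest quintile of genes than in the longest by -0.06 to 0.06 in vehicle libraries and by 0.16 to 0.45 in 7 of the 9 hemin-exposed ones. Hemin replicate 1, at 0.93, and hemin with IL-10 and stattic replicate 3, at 2.00, stood apart in this measure, so calls of named genes that change without this pair, the length-skewed libraries, are given with the value that results.

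Against vehicle, hemin went with higher Nr1d2, Per1, Per2 and Cry1, so that 1 of the 2 REV-ERBs and 3 of the 5 Per and Cry genes rose, by 1.78-fold to 3.00-fold. Nr1d1, Per3, Cry2, Clock, Dbp and Tef did not pass the threshold, a Benjamini-Hochberg adjusted p under 0.05 in edgeR's quasi-likelihood test over all genes tested. The 4 of 10 members called higher stand beside 11.7% of all genes called higher, the 0 called lower beside 9.15%, and the 4 called in either direction beside 20.9%. The median log2 change of the 10 genes was 0.75, against 0.03 over all genes tested. Those 2 medians describe the list and were not tested against each other. The 10 genes were chosen with earlier results of these data known. These counts, and the later ones set beside shares of all genes, are therefore a description only.

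**Figure D1:**
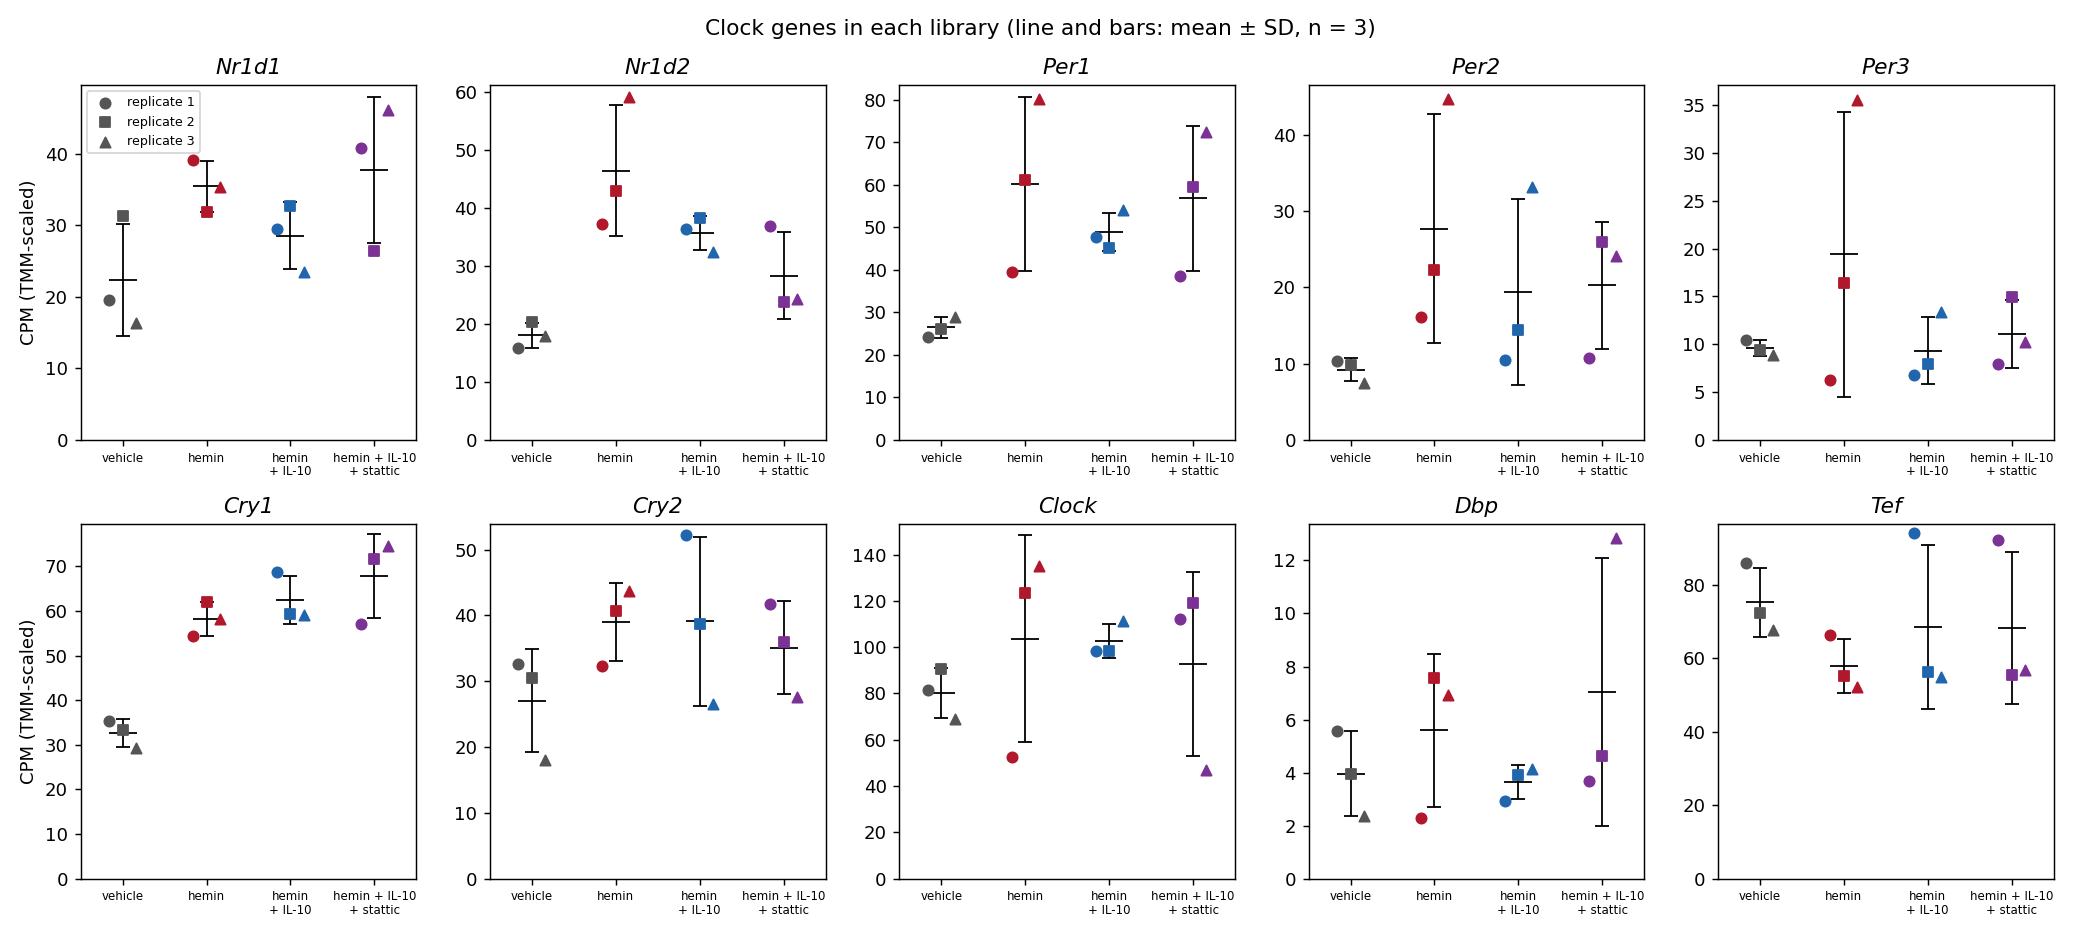
Level of each of the 10 clock genes in CPM (y axis, linear, from 0) in the 12 libraries, by treatment (x axis). Points are libraries, with the marker shape giving the replicate number, and lines with bars are the mean ± SD of 3 libraries. Nr1d2, Per1, Per2 and Cry1 lie higher in all 9 hemin-exposed libraries than in the 3 vehicle libraries, while the hemin libraries of Per3 lie on both sides of vehicle, from 6.2 to 35.6 CPM.

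Nr1d2, the REV-ERBβ gene, stood at 15.9, 20.3 and 18.0 CPM in the vehicle libraries and at 37.3, 43.0 and 59.1 CPM in the hemin libraries. It was at 36.5, 38.2 and 32.5 CPM with IL-10 added and at 37.0, 23.8 and 24.2 CPM with IL-10 and stattic. Every hemin-exposed library lay above every vehicle library, and the lowest 2 were replicates 2 and 3 of the group with stattic. With hemin alone Nr1d2 rose 2.57-fold (log2 change 1.36, SE 0.25, 95% CI 0.82 to 1.91, edgeR adjusted p = 0.00395). It was called in all 22 alternative fits of that comparison, among them the 12 that each left out 1 library, with a log2 change of 1.06 to 1.53. Here and below, those 12 include fits without a library of a group outside the comparison. Such a library enters only through the filter, the scaling and the shared estimate of spread. Against the same vehicle libraries the change was 0.98 with hemin and IL-10 (95% CI 0.45 to 1.52, edgeR adjusted p = 0.0172), called except on log2(FPKM + 1) and without vehicle replicate 1, vehicle replicate 3 or replicate 2 of that group, and 0.65 with stattic added (95% CI 0.11 to 1.19, edgeR adjusted p = 0.0726). That last change missed the threshold, but passed without the length-skewed libraries (0.75, adjusted p = 0.0425) and with a correction for transcript length (0.90, adjusted p = 0.0107).

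Nr1d1, the REV-ERBα gene, was at 19.6, 31.3 and 16.4 CPM in vehicle and at 39.1, 31.9 and 35.4 CPM in hemin. The groups met almost edge to edge, with vehicle replicate 2 at 31.3 CPM just under hemin replicate 2 at 31.9 CPM. Levels were 29.5, 32.7 and 23.4 CPM with IL-10 added, and 40.8, 26.4 and 46.1 CPM with IL-10 and stattic, both overlapping vehicle. The log2 change was 0.66 with hemin (95% CI 0.04 to 1.28, edgeR adjusted p = 0.119), 0.35 with hemin and IL-10 (-0.27 to 0.97, adjusted p = 0.413) and 0.75 with stattic added (0.13 to 1.37, adjusted p = 0.0730). None passed in the edgeR test. DESeq2 called the last (adjusted p = 0.0479), as did edgeR without vehicle replicate 2 or without replicate 2 of that group, at an adjusted p as low as 0.0354. Exons of Nr1d1 share 263 bases with exons of Thra, the thyroid hormone receptor α gene on the opposite strand, by the GENCODE vM21 annotation. Thra was at 292 to 405 CPM in vehicle and 101 to 643 CPM over the hemin-exposed libraries, far above Nr1d1. Whether reads were counted by strand is not stated, so reads of the shared bases may not be told apart.

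The balance between the REV-ERBs was read from the ratio of Nr1d2 to Nr1d1 in FPKM, a comparison chosen after the levels were seen. The ratio was 0.485, 0.370 and 0.614 in vehicle, 0.556, 0.773 and 0.944 in hemin, 0.698, 0.654 and 0.798 with IL-10 added, and 0.515, 0.512 and 0.300 with IL-10 and stattic. Nr1d1 was thus the higher of the pair per length in all 12 libraries. Nr1d2 has the longer transcript, at 4780 bases against 2783 for Nr1d1. The lowest ratio in hemin, 0.556, and the lowest with stattic, 0.300, came from the length-skewed libraries. The part of the length trend in the ratios was not tested. Nor was that of reads from the bases Nr1d1 shares with Thra, which may be counted in the FPKM of Nr1d1. On the log2 scale the ratio exceeded that of vehicle by 0.63 in hemin and by 0.57 in hemin with IL-10, and differed by -0.16 in the group with stattic. Exact two-sided permutation tests over the libraries gave p = 0.2, 0.1 and 0.7 (0.3, 0.3 and 0.7 adjusted over the 3 tests, n = 3 per group), and 0.1 is the smallest p that 3 against 3 allows.

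Among the repressors of CLOCK and BMAL1, Cry1 changed with the least spread. It was at 35.4, 33.3 and 29.2 CPM in vehicle and at 54.4, 62.1 and 58.1 CPM in hemin. With IL-10 added it was at 68.7, 59.4 and 59.2 CPM, and with IL-10 and stattic at 57.1, 71.7 and 74.5 CPM. No hemin-exposed library fell under 54.4 CPM and no vehicle library exceeded 35.4 CPM. Cry1 rose 1.78-fold in hemin (log2 change 0.83, SE 0.18, 95% CI 0.43 to 1.23, edgeR adjusted p = 0.00974), 1.91-fold in hemin with IL-10 (0.94, 0.53 to 1.34, edgeR adjusted p = 0.00582) and 2.08-fold with stattic added (1.05, 0.65 to 1.46, edgeR adjusted p = 0.00310). These 3 comparisons share the vehicle libraries. Cry1 was called in all 22 alternative fits of each of them.

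Its paralogue Cry2 was at 32.7, 30.4 and 18.1 CPM in vehicle, and at 32.3 to 43.8 CPM in hemin, 26.6 to 52.2 CPM with IL-10 added and 27.6 to 41.7 CPM with IL-10 and stattic. All 3 ranges overlapped that of vehicle. The log2 changes of Cry2 were 0.52 (95% CI -0.13 to 1.18), 0.53 (-0.12 to 1.18) and 0.38 (-0.27 to 1.03), with edgeR adjusted p = 0.231, 0.227 and 0.377. Whether Cry1 and Cry2 differed in their change was not tested.

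Per1, which encodes the period protein that responds fastest to outside signals in many cells, was at 24.2, 26.1 and 28.9 CPM in vehicle. In hemin it was at 39.4, 61.1 and 80.1 CPM. The levels were 47.7, 45.1 and 53.9 CPM with IL-10 added and 38.5, 59.5 and 72.3 CPM with IL-10 and stattic. Each hemin-exposed library was above each vehicle library, and the libraries of the hemin group ranged widely around their mean. Per1 rose 2.28-fold in hemin (log2 change 1.19, 95% CI 0.57 to 1.81, edgeR adjusted p = 0.0140), 1.85-fold in hemin with IL-10 (0.89, 0.27 to 1.5, edgeR adjusted p = 0.0443) and 2.15-fold with stattic added (1.10, 0.48 to 1.72, edgeR adjusted p = 0.0173). The call in hemin was lost without hemin replicate 3 (0.92, adjusted p = 0.0507) and without vehicle replicate 1 (1.12, adjusted p = 0.0561). That in hemin with IL-10 was lost in 3 of the 10 other settings and in 8 of the 12 fits without 1 library, at an adjusted p of up to 0.130. The one with stattic added was lost on log2(FPKM + 1) and without vehicle replicate 1 or 2, at an adjusted p of up to 0.0665.

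Per2 was low in vehicle, at 10.3, 9.9 and 7.5 CPM, and stood at 16.1, 22.3 and 44.7 CPM in hemin. With IL-10 added it was at 10.5, 14.4 and 33.2 CPM, and with IL-10 and stattic at 10.7, 26.0 and 24.1 CPM. The groups did not overlap, but replicate 1 of each group with IL-10 was barely above the highest vehicle library. Per2 rose 3.00-fold in hemin (log2 change 1.58, 95% CI 0.50 to 2.67, edgeR adjusted p = 0.0417). This call was lost with scaling to library totals, in limma-voom and in limma on log2(FPKM + 1), and in 6 of the 12 fits that left out 1 library, and without hemin replicate 3 the change was 1.05 (adjusted p = 0.165). The log2 change was 1.07 in hemin with IL-10 (-0.01 to 2.15, edgeR adjusted p = 0.144) and 1.13 with stattic added (0.05 to 2.21, edgeR adjusted p = 0.114), neither called.

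Per3, the least abundant Per gene per length, was at 10.5, 9.4 and 8.9 CPM in vehicle and at 6.2, 16.4 and 35.6 CPM in hemin. The hemin libraries thus bracketed vehicle, with replicate 1 below it and replicate 3 far above. It was at 6.8, 7.9 and 13.3 CPM with IL-10 added and 8.0, 15.0 and 10.2 CPM with IL-10 and stattic. The log2 change was 1.02 in hemin (95% CI -0.09 to 2.12, edgeR adjusted p = 0.174), and it was 1.43 without the length-skewed libraries, which passed (adjusted p = 0.0303). Without hemin replicate 3 it was 0.23. In hemin with IL-10 the change was -0.04 (edgeR adjusted p = 0.971) and with stattic added 0.21 (edgeR adjusted p = 0.797).

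The promoters of Cry1, Per1 and Nr1d2, which rose in hemin, are shown because the loop described above acts on E-boxes in such sequence. Each window is the 250 bases before a RefSeq start site in GRCm38.p6, read 5′ to 3′ on the gene's strand, in lower case with E-box matches (CACGTG) in capitals. RefSeq windows were found for 9 of the 10 members, all but Per2.
Cry1, chr10:85185055-85185304, minus strand: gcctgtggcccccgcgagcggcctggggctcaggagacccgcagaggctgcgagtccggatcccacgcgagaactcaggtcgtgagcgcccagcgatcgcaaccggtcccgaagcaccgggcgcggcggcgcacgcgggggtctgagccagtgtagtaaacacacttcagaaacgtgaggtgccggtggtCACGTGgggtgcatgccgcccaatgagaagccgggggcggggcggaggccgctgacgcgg
Per1, chr11:69098699-69098948, plus strand: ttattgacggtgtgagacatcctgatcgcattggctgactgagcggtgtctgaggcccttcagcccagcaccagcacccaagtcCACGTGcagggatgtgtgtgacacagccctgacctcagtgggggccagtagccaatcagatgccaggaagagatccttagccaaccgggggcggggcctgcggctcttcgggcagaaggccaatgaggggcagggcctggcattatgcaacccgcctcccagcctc
Nr1d2, chr14:18239107-18239356, minus strand: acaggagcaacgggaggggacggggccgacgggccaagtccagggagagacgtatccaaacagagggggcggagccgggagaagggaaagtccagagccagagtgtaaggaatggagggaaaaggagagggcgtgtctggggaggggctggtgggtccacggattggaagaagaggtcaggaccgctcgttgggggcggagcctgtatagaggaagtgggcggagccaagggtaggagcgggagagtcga
Counting back from the start site, the E-box lies at -60 to -55 in Cry1 and at -166 to -161 in this window of Per1, and a further RefSeq start of Per1 has none. Of the 9 members with a window, 3 hold an E-box: Cry1, Per1 and Tef. Tef, which did not rise, has 1 E-box in each of 2 windows. Over all clock lists, including those described below, 8 of 37 genes with a window hold one. Among them are Ciart, called higher in hemin, and Fkbp5, called lower. A link between E-boxes and the changes was not tested. The sequence CACGTG occurs in 6.02% of the 32851 RefSeq windows of this length. The Nr1d1 and Nr1d2 windows hold none of the spellings searched on both strands: the E-box, the D-box (TTATGTAA, in 0.819% of windows, or TTACGTAA, in 0.113%), the cyclic AMP response element (TGACGTCA, 1.55%), the ROR element (TAGGTCA, 2.23%), the AP-1 site (TGANTCA, 6.75%), the antioxidant response element (TGANTCAGC, 1.02%, which contains the AP-1 spelling) and the heat shock element (0.466%). A match describes letters and is not a measured binding site.

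D-boxes, the target sequence of DBP, TEF and NFIL3, were found in 1 member, Per3, whose window holds 2 matches at -205 to -198 and -158 to -151, shown in capitals.
Per3, chr4:151044666-151044915, minus strand: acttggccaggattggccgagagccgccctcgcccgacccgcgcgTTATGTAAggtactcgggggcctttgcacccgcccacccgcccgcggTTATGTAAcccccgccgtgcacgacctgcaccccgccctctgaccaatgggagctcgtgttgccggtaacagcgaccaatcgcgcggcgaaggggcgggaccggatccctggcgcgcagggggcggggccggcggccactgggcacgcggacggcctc

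Clock, which encodes the activating partner of BMAL1 and has the longest transcript of the 10, was at 81.5, 90.4 and 69.0 CPM in vehicle and at 52.6, 123 and 135 CPM in hemin. It was at 98.2, 98.3 and 111 CPM with IL-10 added, and at 112, 119 and 47.1 CPM with IL-10 and stattic. The lowest 2 values of the 12 belong to the length-skewed libraries, and the other hemin-exposed libraries all lay above vehicle. The log2 changes were 0.37 (95% CI -0.44 to 1.17), 0.35 (-0.45 to 1.16) and 0.21 (-0.60 to 1.01), with edgeR adjusted p = 0.513, 0.533 and 0.708, so none was called. Without those libraries the change was 0.68 in hemin (edgeR adjusted p = 0.0147) and 0.52 with IL-10 and stattic (edgeR adjusted p = 0.0356), and both were called. On log2(FPKM + 1) with all libraries the latter was -0.13.

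**Figure D2:**
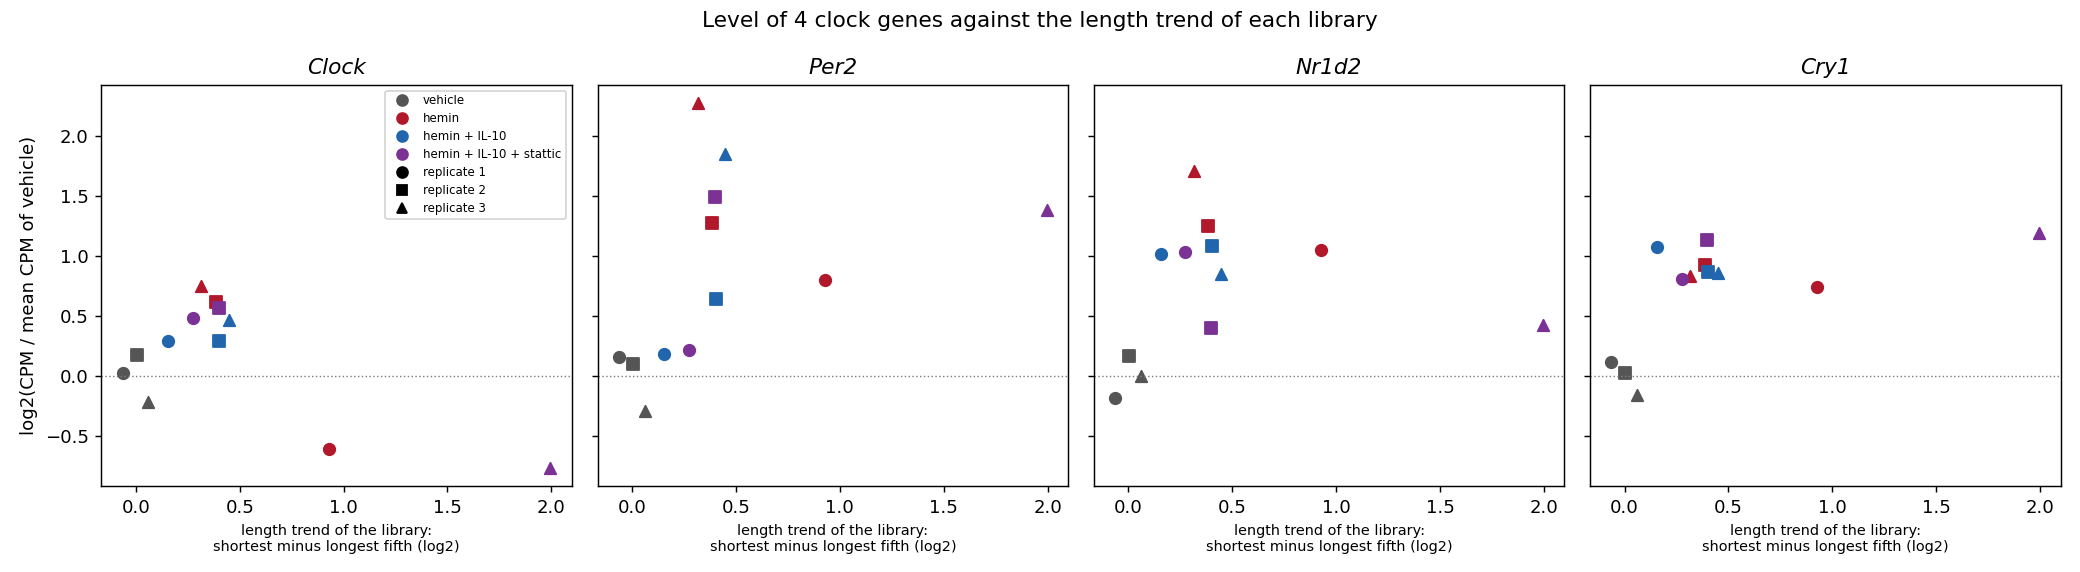
Level of Clock, Per2, Nr1d2 and Cry1 in each of the 12 libraries (y axis, log2 of CPM over the mean CPM of vehicle) against the length trend of that library (x axis, median log2 difference from vehicle in the shortest quintile of genes minus that in the longest). Colours give the treatment and marker shapes the replicate number. Clock falls below the dotted vehicle level in the 2 libraries at 0.93 and 2.00, while Cry1 and Nr1d2 stay above it there.

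Dbp and Tef encode related PAR bZIP factors that carry the clock's output to other genes. Dbp had as few as 23 expected counts, in hemin replicate 1, and was at 5.6, 3.9 and 2.4 CPM in vehicle and 2.3, 7.6 and 6.9 CPM in hemin. It was at 2.9 to 4.1 CPM with IL-10 added and at 3.7 to 12.8 CPM with IL-10 and stattic. The highest value, 12.8 CPM, was in the library with the steepest length trend, and Dbp has the shortest transcript of the 10. The 3 changes against vehicle were 0.50, -0.12 and 0.82, with an SE of 0.56 each (edgeR adjusted p = 0.559, 0.908 and 0.296), and the 95% CI were -0.72 to 1.71, -1.34 to 1.11 and -0.39 to 2.04. Without the length-skewed libraries the last change was 0.06. Exons of Dbp share 539 bases with Sphk2 on the opposite strand. Sphk2 was at 24.0 to 28.7 CPM in vehicle and 31.9 to 54.5 CPM over the hemin-exposed libraries, above Dbp. As for Nr1d1 and Thra, reads of the shared bases may not be told apart.

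Tef was the one member lower in hemin, at 66.2, 55.1 and 52.3 CPM against 85.8, 72.2 and 67.7 CPM in vehicle. The groups were apart, though hemin replicate 1 lay close under vehicle replicate 3. It was at 94.2, 56.3 and 54.8 CPM with IL-10 added and at 92.1, 55.5 and 56.9 CPM with IL-10 and stattic, where replicate 1 lay above vehicle and the other replicates below it. The log2 change in hemin was -0.38 (95% CI -0.96 to 0.20, edgeR adjusted p = 0.339), and it was -0.14 in each of the groups with IL-10, none called.

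**Figure D3:**
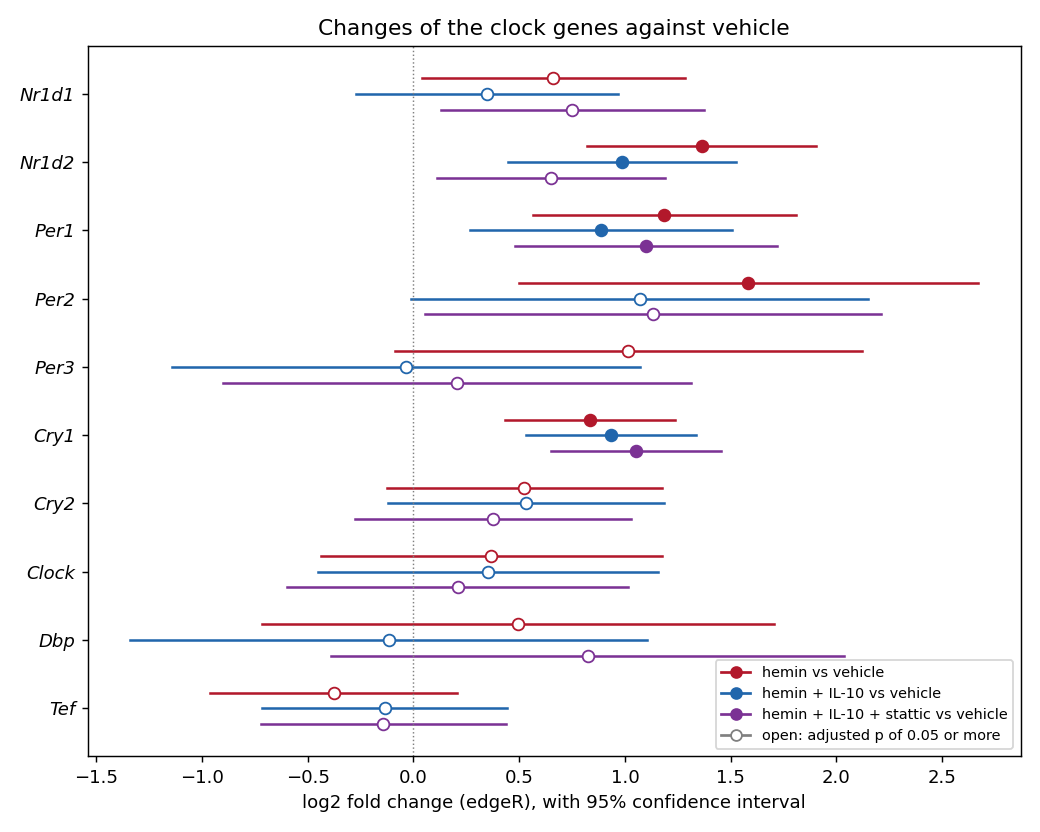
Log2 fold change of the 10 clock genes against vehicle (x axis) in hemin, hemin with IL-10, and hemin with IL-10 and stattic, from edgeR. Lines are 95% confidence intervals, filled points have an adjusted p under 0.05 and open points do not. Cry1 and Per1 are filled in all 3 comparisons, Nr1d2 in 2 and Per2 in 1, and the comparisons share the same vehicle libraries.

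Taking the groups as a whole, hemin with IL-10 had 3 members called higher against vehicle, Nr1d2, Per1 and Cry1, beside 12.1% of all genes called higher, and 0 lower beside 8.81% (21.0% in either direction). The group with stattic had 2, Per1 and Cry1, beside 14.7%, and 0 lower beside 10.2% (24.9% in either direction). The median log2 change of the 10 was 0.44 and 0.70, against 0.00 and 0.10 over all genes tested. In hemin alone 5 members had all 3 libraries above all of vehicle, where 25.6% of all genes did, and 1, Tef, had all below, where 24.5% of all genes did. The corresponding counts above vehicle were 5 with IL-10 (24.9% of all genes) and 4 with stattic added (21.5%), and those below were 0 (24.3%) and 0 (19.6%).

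Adding IL-10 to hemin, the comparison that asks what the cytokine does to hemin-exposed cells, was followed by no called change in any of the 10 genes, and no gene of the 13967 was called in edgeR (0.0%). At an unadjusted p under 0.05 there were 337 genes, with 0 members among them, and DESeq2 called 3 genes, none of them a member. With replicate numbers as a block edgeR called 1 gene, again no member. No member had all libraries of one group apart from those of the other, against 3.61% of all genes apart and higher with IL-10 and 5.08% apart and lower. The member with the largest estimate was Per3, at a log2 change of -1.05 (95% CI -2.16 to 0.06, edgeR adjusted p = 0.999), which was -0.27 without hemin replicate 3. Nr1d2 was at -0.38 (-0.91 to 0.15), Nr1d1 at -0.31 (-0.93 to 0.31), Per1 at -0.30 (-0.91 to 0.31) and Per2 at -0.51 (-1.57 to 0.54). Cry1 was at 0.10 (-0.30 to 0.50), the narrowest interval of the 10. Each of these intervals includes 0, and none of them shows that IL-10 had no effect. They come from the fit without the replicate block, so they do not use the replicate numbers.

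Adding stattic to hemin with IL-10, which sets STAT3 inhibition against the cytokine, was likewise followed by 0 called members and 0 called genes in edgeR (0.0%), with 523 genes and 0 members at an unadjusted p under 0.05 and 0 genes called by DESeq2, which had 640 at an unadjusted p under 0.05. Again 0 members were apart, against 3.15% of all genes apart and higher and 2.21% apart and lower. Nr1d1 had a log2 change of 0.40 (95% CI -0.22 to 1.02) and Nr1d2 one of -0.33 (-0.87 to 0.20). For Cry1 it was 0.12 (-0.28 to 0.52), for Per1 0.21 (-0.40 to 0.83) and for Per2 0.06 (-1.0 to 1.12). Dbp had the largest estimate at 0.94 (-0.28 to 2.16, edgeR adjusted p = 0.921), and it was 0.17 without replicate 3 of the group with stattic.

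Levels between genes were compared in FPKM. In vehicle the order was Tef (18.9 ± 2.37, SD, n = 3), Cry1 (12.1 ± 1.16), Clock (10.4 ± 1.45), Nr1d1 (9.08 ± 3.15), Cry2 (8.13 ± 2.44), Per1 (6.06 ± 0.537), Nr1d2 (4.21 ± 0.429), Dbp (2.84 ± 1.11), Per2 (1.74 ± 0.284) and Per3 (1.56 ± 0.162). Of the neighbours in this order, Tef and Cry1 did not overlap, nor did Per1 and Nr1d2, and the other 7 pairs overlapped. In hemin Cry1 came first at 19.9 ± 1.52 FPKM, apart from Tef at 13.6 ± 1.32 FPKM, and Nr1d1, Per1, Clock, Cry2 and Nr1d2 followed between 13.3 and 10.0 FPKM with ranges that overlapped from each to the next. Per2, Dbp and Per3 stayed last at 4.98 ± 2.96, 3.59 ± 1.77 and 3.22 ± 2.62 FPKM. Cry1 also led in hemin with IL-10 (21.0 ± 1.17 FPKM) and with stattic added (21.2 ± 2.98 FPKM), where its range overlapped that of Tef.

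The spread among replicates was itself unequal. In hemin the coefficient of variation of the CPM ran from 6.6% for Cry1 to 76.7% for Per3, with Per2 at 54.3%, Dbp at 51.6%, Clock at 43.1% and Per1 at 33.9%. In vehicle it was 8.6% for Per3, 9.0% for Per1 and 16.2% for Per2. Of the 10 genes, 8 were lowest in replicate 1 of the hemin group and 6 were highest in its replicate 3. In vehicle 8 were lowest in replicate 3. Hemin replicate 1 is a length-skewed library, and the part of the length trend in these counts was not tested. The shares of all genes lowest or highest in each library were not computed.

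The 6 other lists of clock genes held 39 genes, of which 38 were tested. In hemin 7 were called higher and 3 lower against vehicle, in hemin with IL-10 11 and 4, and with stattic added 7 and 6. Of all genes tested, 11.7% were called higher and 9.15% lower in hemin, 12.1% and 8.81% with IL-10, and 14.7% and 10.2% with stattic added. With so few genes per list the counts are a description, and several lie near these shares. No gene of these lists was called when IL-10 was added to hemin or stattic to hemin with IL-10. Because the lists differ in role they are given in turn, with the genes of the smallest adjusted p in hemin.

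**Figure D4:**
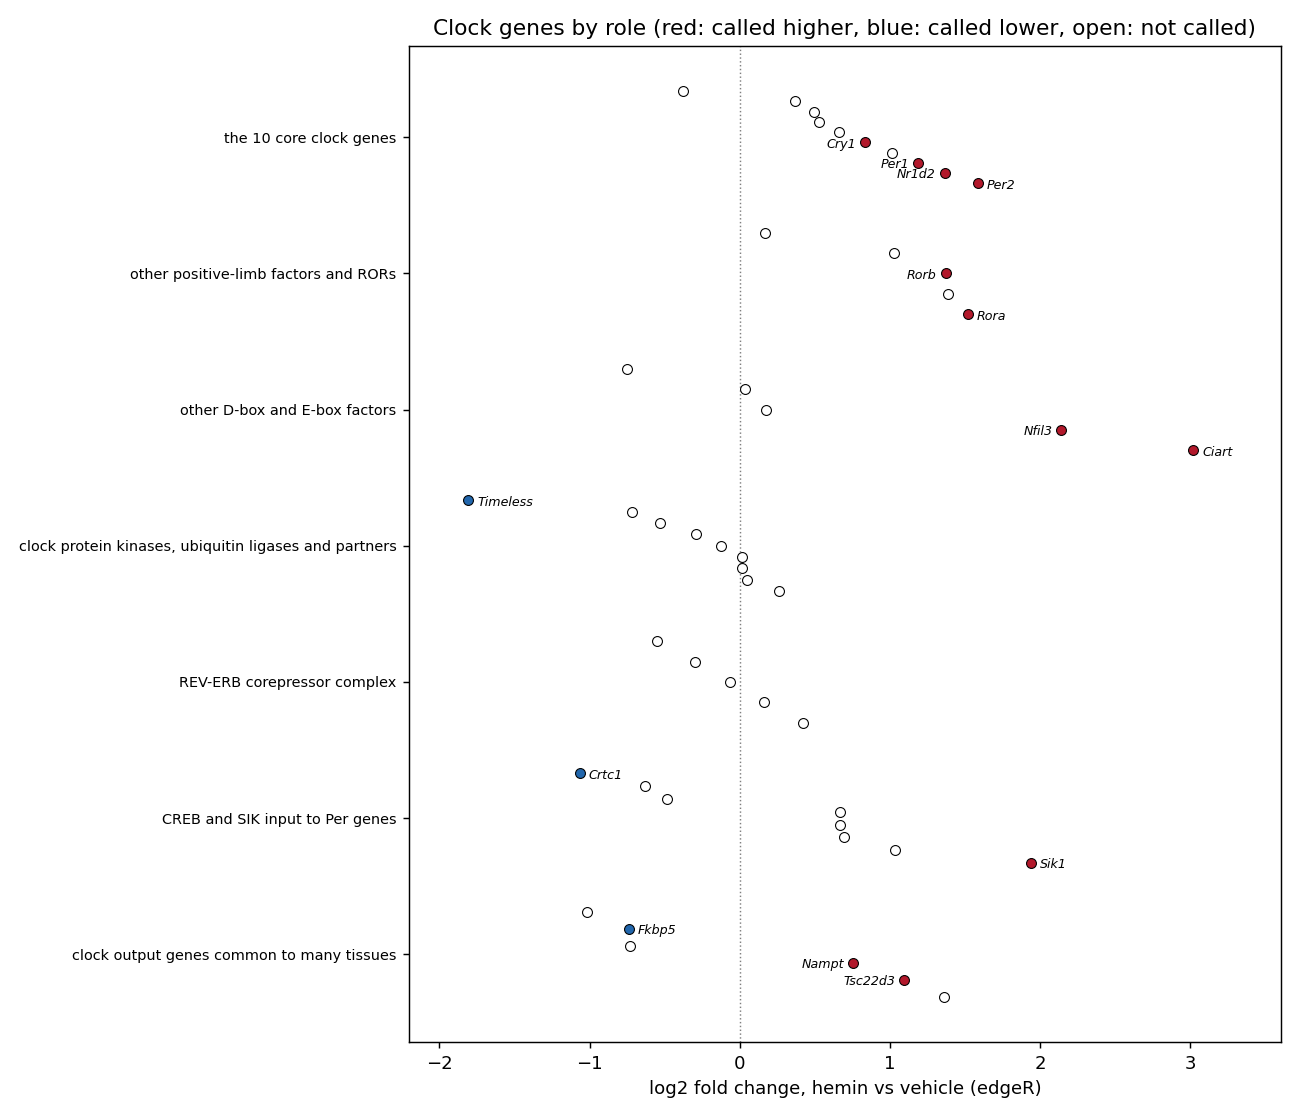
Log2 fold change in hemin against vehicle (x axis) of the 48 tested clock genes, grouped by role (y axis, spread vertically within a role by rank). Red points were called higher, blue points lower and open points not called by edgeR. The called REV-ERB, Per and Cry genes lie between 0.83 and 1.58, Ciart reaches 3.02 and Timeless lies at -1.81.

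Of the positive-limb factors and RORs, 2 of 5 tested were called higher in hemin and 0 lower. Rorb, an activating receptor at ROR elements, was at 25.0, 34.1 and 25.4 CPM in vehicle and at 64.8, 73.7 and 80.0 CPM in hemin, a 2.59-fold rise (log2 change 1.37, SE 0.22, edgeR adjusted p = 0.00207). Rora, its relative, was at 14.0, 13.8 and 17.3 CPM in vehicle and at 21.0, 52.8 and 55.6 CPM in hemin, and rose 2.87-fold (1.52, SE 0.34, edgeR adjusted p = 0.00995). Rorb was also called with hemin and IL-10 (1.56) and with stattic added (1.16), and Rora with IL-10 (1.18, edgeR adjusted p = 0.0276) but not with stattic added (0.66, edgeR adjusted p = 0.162). That last change was called without the length-skewed libraries (0.82, edgeR adjusted p = 0.0127) and with the correction for transcript length (1.13, edgeR adjusted p = 0.00798). The Rora call with IL-10 was lost in 6 of the 12 fits without 1 library, at an adjusted p of up to 0.0952, and with 2 other settings. Arntl, the BMAL1 gene and a classic REV-ERB target, was at 48.7, 50.2 and 47.7 CPM in vehicle and at 53.0, 47.9 and 63.6 CPM in hemin, which overlapped. Its log2 change was 0.17 (95% CI -0.31 to 0.65, edgeR adjusted p = 0.627), with -0.01 and -0.09 in the groups with IL-10. Npas2, a CLOCK-like partner of BMAL1, was scarce, at 0.835 to 2.56 CPM in vehicle and 2.87 to 5.21 CPM in hemin, with a log2 change of 1.39 that was not called (edgeR adjusted p = 0.0738). DESeq2 called it (adjusted p = 0.0374), as did edgeR without vehicle replicate 2 (2.08, adjusted p = 0.0332). With IL-10 added Npas2 was at 3.69 to 6.16 CPM and was called (1.72, edgeR adjusted p = 0.0344), a call lost in 2 of the 10 other settings and 6 of the 12 fits without 1 library, at an adjusted p of up to 0.129. With stattic as well its change was 1.34 (edgeR adjusted p = 0.0746), called by DESeq2 (adjusted p = 0.0418) and in 2 of the fits without 1 library.

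Of the D-box and E-box factors, 2 of 5 were called higher in hemin and 0 lower. Nfil3, a D-box repressor and a REV-ERB target, was at 15.2, 15.7 and 13.1 CPM in vehicle and at 63.3, 63.2 and 67.9 CPM in hemin. It rose 4.41-fold (log2 change 2.14, SE 0.31, edgeR adjusted p = 0.00135), and stood at 43.9 to 119 CPM with IL-10 added and 60.5 to 69.9 CPM with IL-10 and stattic. Ciart, which encodes a repressor of CLOCK and BMAL1, was at 1.48, 2.47 and 1.24 CPM in vehicle and at 13.0, 11.1 and 18.3 CPM in hemin, an 8.11-fold rise (3.02, SE 0.45, edgeR adjusted p = 0.00156). It was called with IL-10 added (2.45) and with IL-10 and stattic (3.29) too. In vehicle Ciart rested on only 16, 27 and 13 expected counts. Hlf, the relative of Dbp and Tef, was at 15.9, 15.4 and 26.5 CPM in vehicle and 10.7, 9.74 and 13.8 CPM in hemin, with a log2 change of -0.75 (edgeR adjusted p = 0.134). It fell by 1.25 with IL-10 added (edgeR adjusted p = 0.0243) and by 1.55 with stattic as well (edgeR adjusted p = 0.00942). The call with IL-10 was lost with the length correction and in 4 of the 12 fits without 1 library, at an adjusted p of up to 0.106.
The Ciart window is shown for its E-boxes, at -116, -58 and -44 (first base), in capitals.
Ciart, chr3:95882229-95882478, minus strand: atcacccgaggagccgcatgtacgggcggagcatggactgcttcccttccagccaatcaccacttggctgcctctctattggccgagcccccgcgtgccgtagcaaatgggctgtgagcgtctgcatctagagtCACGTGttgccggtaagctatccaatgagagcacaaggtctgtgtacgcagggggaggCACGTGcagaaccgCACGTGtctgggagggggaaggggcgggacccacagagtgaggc
The Nfil3 window holds a ROR element at -12 to -6, and that of Hlf a cyclic AMP response element at -9 to -2.

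Of 5 genes of the REV-ERB corepressor complex described here, 0 were called in hemin by edgeR, beside 20.9% of all genes tested. At an unadjusted p under 0.05 there was 1 of the 5, beside 4945 of the 13967 genes tested. The 1 gene was Ncor1, the NCoR gene, at 337, 315 and 330 CPM in vehicle and 179, 238 and 254 CPM in hemin. Its groups did not overlap, and 24.5% of all genes were likewise apart and lower. Its log2 change was -0.55 in hemin (edgeR adjusted p = 0.137), -0.48 with IL-10 added (edgeR adjusted p = 0.195) and -0.80 with stattic as well, the last called (edgeR adjusted p = 0.0365). With IL-10 added it was called without the length-skewed libraries (-0.47, edgeR adjusted p = 0.0433). In hemin it was called in the fit of the compared groups alone (edgeR adjusted p = 0.0445) and without replicate 3 of the group with stattic (edgeR adjusted p = 0.0374). The call with stattic was lost with the correction for transcript length (-0.40), in the fit of the compared groups alone and in 7 of the 12 fits without 1 library, at an adjusted p of up to 0.107. Gps2, a further subunit, was at 0.42 in hemin (edgeR adjusted p = 0.298). Tbl1xr1, which encodes an exchange factor of the complex, was at -0.30 in hemin (edgeR adjusted p = 0.443) and at -0.66 with IL-10 and stattic (edgeR adjusted p = 0.0780), where 3 of the 10 other settings called it.

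Of the kinases, ubiquitin ligases and partners of clock proteins, 1 of 9 was called lower in hemin and 0 higher. Timeless, which in mammals also works at replication forks, was at 51.5, 37.7 and 72.6 CPM in vehicle and at 13.1, 16.9 and 16.2 CPM in hemin, and fell to 0.286 of vehicle (log2 change -1.81, edgeR adjusted p = 0.0173). Gsk3b and Csnk2a1, kinases of clock proteins, had changes of -0.53 and -0.29, not called (edgeR adjusted p = 0.271 and 0.314). The Timeless call was lost without vehicle replicate 3 (-1.54, edgeR adjusted p = 0.0658) and without hemin replicate 1 or 2.

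Signals that reach the Per genes through CREB gave 1 of 8 called higher and 1 lower. Sik1, a kinase that limits CREB coactivators, was at 6.96, 9.6 and 6.0 CPM in vehicle and at 23.8, 32.2 and 30.5 CPM in hemin, a 3.83-fold rise (log2 change 1.94, SE 0.32, edgeR adjusted p = 0.00274). Crtc1, one of those coactivators, was at 70.5, 67.3 and 62.6 CPM in vehicle and 38.9, 26.4 and 30.5 CPM in hemin, and fell by 1.06 on the log2 scale (edgeR adjusted p = 0.0124). The Crtc1 call was lost with the correction for transcript length (-0.83, edgeR adjusted p = 0.0773) and without hemin replicate 2 (-0.95, edgeR adjusted p = 0.0573). Crtc2 was at 0.69 (edgeR adjusted p = 0.0549), and was called in 4 of the 10 other settings, among them that without the length-skewed libraries (0.74, edgeR adjusted p = 0.0497).

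Of the output genes common to many tissues, 2 of 6 were called higher and 1 lower in hemin. Nampt, which encodes the enzyme that limits NAD+ salvage, was at 57.9, 65.5 and 59.1 CPM in vehicle and 98.9, 107 and 102 CPM in hemin, and rose 1.69-fold (log2 change 0.76, edgeR adjusted p = 0.0137). Tsc22d3, known also as a glucocorticoid target, rose 2.14-fold (1.10, edgeR adjusted p = 0.0204), while Fkbp5, another gene that glucocorticoids induce, fell to 0.600 of vehicle (-0.74, edgeR adjusted p = 0.0147). Each of these 3 calls was lost in at least 1 fit that left out 1 library, at an adjusted p of up to 0.0644 for Nampt (vehicle 1, vehicle 3 or hemin 2 left out), 0.0878 for Tsc22d3 (the same libraries) and 0.0673 for Fkbp5 (vehicle 2). The Nampt call was also lost in limma on log2(FPKM + 1) (0.61, limma adjusted p = 0.0511).

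Finally, the genes whose pattern over the 12 libraries came closest to each REV-ERB were found by the root mean square difference in log2 CPM, each gene centred on its mean, among 11023 genes with a mean of at least 5 CPM. For Nr1d1 these were Prxl2a (0.191), Adss (0.212) and Cnn3 (0.228), and the closest of the other 9 members were Cry1 at rank 624 (0.366) and Cry2 at rank 1194 (0.403), with Nr1d2 at rank 2195 (0.454). For Nr1d2 they were Mier3 (0.214), Rai14 (0.252) and Nfkb1 (0.254), and the closest members were Cry2 at rank 355 (0.412), Per1 at rank 528 (0.438) and Cry1 at rank 532 (0.439), with Nr1d1 at rank 660 (0.454). All of these profiles share the same libraries, so the distances are a description of likeness over 12 points.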

How the data were processed

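RNA from 12 libraries was sequenced as DNA nanoballs after dUTP second-strand synthesis, per the labels' protocols. RSEM, Bowtie2, Bowtie, HISAT, StringTie, TopHat, Cufflinks and CASAVA are named in the submitters' processing notes, without roles. The aligner's role, the genome build and strand use in counting are not given in the sources used here. Each deposited file holds 1 row per gene with its expected count, FPKM and transcript length, per the file headers. Genes that a file does not list were set to 0 in that library.

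Expected counts were rounded and fitted in edgeR 4.0.16 (R 4.3.3) with filterByExpr, TMM scaling and robust quasi-likelihood dispersions, 1 mean per group over all 12 libraries. Adjusted p-values are Benjamini-Hochberg over the 13967 genes tested, called under 0.05. The scripts were tested on simulated data. Alternatives used DESeq2 1.42.0, limma 3.58.1 (with a pseudocount of 1 on FPKM), other scalings, no filter, only the compared groups, a length offset, a replicate block and fewer libraries. The fold change on log2(FPKM + 1) understates low genes.

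The 10 genes, the gene lists and the tests were chosen with earlier results of these data known. Named genes are the 10, Arntl and Npas2, up to 3 genes per other clock list with the smallest adjusted p in hemin against vehicle, and the 3 genes closest to each REV-ERB. One gene of these lists is not reported here. Marker lists cover oligodendrocyte progenitors, microglia, astrocytes, neurons, and vascular cells with fibroblasts. Summed astrocyte markers were at 2134 to 5817 CPM in vehicle and 807 to 3611 CPM with hemin, and neuron markers at 836 to 1074 CPM and 607 to 1112 CPM. In hemin against vehicle 2 of 7 progenitor markers and 1 of 7 astrocyte markers were called lower, beside 9.15% of all genes. Of the neuron markers 2 of 7 were called higher, beside 11.7% of all genes. Replicates of a group differed by far more than sampling noise, so each counted once.

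The labels number the replicates without saying whether a number was shared by design. In adding IL-10 to hemin, the deviations of same-numbered libraries correlated at 0.37, 0.17 and 0.61, and the numbers were taken to pair these libraries. Every other comparison had a pair at 0.10 or less. Adding stattic to hemin with IL-10 gave 0.64, -0.05 and 0.48, so replicates 1 and 3 deviated together there too. No column of per-sample values was left unused for want of a sample.

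Promoter windows are RefSeq sequence of GRCm38.p6. Exon overlaps come from GENCODE vM21 (GRCm38). Depth limits Dbp, Npas2 and, in vehicle, Ciart most, and counting error is part of the spread between libraries.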

Additional observations from a re-analysis of the deposited data

How the results depend on the processing

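Over the 10 other settings, the number of the 10 genes called higher in hemin was 3 to 6 against 4 as reported, and 2 to 5 when 1 library was left out. Against vehicle it was 1 to 3 in hemin with IL-10 (3 as reported), with 1 in limma on log2(FPKM + 1), and 1 to 4 with stattic added (2 as reported), with 1 in limma on log2(FPKM + 1) and 4 without the length-skewed libraries. Leaving out 1 library gave 1 to 3 in each of these. No member was called lower, and none was called for added IL-10 or stattic, in any of the 22 alternatives. The cause of these shifts was not tested. Scaling to library totals moved the median log2 change of all genes from 0.03 to -0.07 in hemin, from 0.00 to -0.13 in hemin with IL-10 and from 0.10 to -0.14 with stattic added. It turned the 1696 higher and 1231 lower calls in hemin with IL-10 into 1317 and 1665, and the 2048 and 1424 with stattic into 1414 and 2208. On log2(FPKM + 1) there were 955 higher and 1650 lower calls in hemin (1639 and 1278 in edgeR), 895 and 1724 with IL-10 and 946 and 2358 with stattic added. The fit of the compared groups alone gave 2233 and 2113 in hemin, 2339 and 1916 with IL-10 and 958 and 692 with stattic added, and omitting the length-skewed libraries gave 2572 and 1974 with IL-10. Leaving out 1 library gave 803 to 2287 higher and 442 to 1969 lower calls in hemin, 724 to 2403 higher and 423 to 1824 lower with IL-10 and 916 to 2186 higher and 692 to 1724 lower with stattic added.

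With the replicate block the counts of members called were 4 in hemin, 3 with IL-10 added and 2 with IL-10 and stattic, as without it. The count was 0 for added IL-10, where the numbers were taken to pair the libraries, though the labels do not state this. There the blocked log2 change was -0.38 for Nr1d2, -0.067 for Cry2 and 0.0094 for Clock. Among the other named genes the block added the calls of Hlf (-0.73) and Crtc2 (0.68) in hemin and Tbl1xr1 (-0.66) and Gps2 (0.69) with IL-10 and stattic. The counts of all genes called moved by less than 1.5 times, except the 1 gene called for added IL-10.

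Changes near 0 turned in sign, none of them called. For added IL-10, Cry2 (0.01 as reported) was -0.033 with library totals, -0.037 in limma-voom, -0.0028 on log2(FPKM + 1), -0.012 with the length offset and -0.092 without the length-skewed libraries, and Clock was 0.0016 with no filter, 0.098 in limma-voom and 0.075 on log2(FPKM + 1). For added stattic, Per1 was -0.011 without the length-skewed libraries. Per2 was -0.062 with library totals, -0.011 on log2(FPKM + 1) and -0.090 without the length-skewed libraries. Clock was 0.019 with the length offset and 0.16 without the length-skewed libraries, and Tef 0.0019 in limma-voom, 0.077 with the length offset and 0.094 without the length-skewed libraries. In hemin with IL-10 against vehicle, Per3 was 0.0058 and Csnk2a1 0.0070 in the fit of 2 groups, and 0.13 and 0.081 with the length offset. Arntl was 0.014 with DESeq2 size factors and in DESeq2, 0.0095 with the length offset, 0.037 in the fit of 2 groups and 0.00060 without the length-skewed libraries. With stattic added, Per3 was -0.010 with library totals, Clock -0.13 on log2(FPKM + 1) and Tef 0.058 with the length offset.

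Leaving out 1 library gave these ranges across 0. For added IL-10 they were -1.15 to 0.016 for Per2, -0.25 to 0.22 for Cry2, -0.33 to 0.23 for Clock and -0.057 to 0.38 for Tef. For added stattic they were -0.012 to 0.43 for Per1, -0.24 to 0.70 for Per2, -0.042 to 0.59 for Per3, -0.37 to 0.11 for Cry2, -0.36 to 0.16 for Clock and -0.29 to 0.29 for Tef. In hemin with IL-10 against vehicle they were -0.39 to 0.14 for Per3, -0.37 to 0.22 for Dbp, -0.12 to 0.0029 for Csnk2a1 and -0.12 to 0.086 for Arntl. With stattic added they were -0.083 to 0.39 for Per3, -0.016 to 0.52 for Clock and -0.21 to 0.093 for Arntl.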
